A study of Homo sapiens with 6 samples.

Results

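Peroxisome and fatty acid oxidation genes were followed through RNA-seq and Ribo-seq, the sequencing of mRNA fragments that ribosomes protect from nuclease, in the renal carcinoma line 786-O. The members are 43 genes taken by symbol from the 19669 named genes of the deposited table. They comprise 26 oxidation enzymes (17 mitochondrial and 9 peroxisomal), 11 peroxins, 5 further genes listed as peroxisomal (the transporters ABCD3 and ABCD4 and the enzymes CAT, AGPS and GNPAT) and the carnitine carrier SLC25A20. Each of the 43 stood on a single row and reached 1 unit or more in at least 1 library of every comparison. The libraries carry 3 labels, MT, WT and EV (empty vector), with 1 RNA-seq and 1 Ribo-seq library per label. Cells for Ribo-seq were given cycloheximide at 100 ug/ml in all 3 labels, and for RNA-seq none is given. The series title gives MT as PHYHD1 lacking the segment 107 to 130 and WT as PHYHD1-WT, while the design text calls MT overexpressing and WT untreated. The design text names 3 dishes per condition, and no source used here gives whether they were pooled, what promoter drives the constructs, or whether the lines are clones or pools. All 3 groups share the background of 786-O, which derives from a clear cell renal carcinoma and has no functional VHL. With 1 library per group there is no replicate check, so no p-value is given and every comparison is between libraries.

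Fatty acids are shortened by beta-oxidation in 2 organelles. Mitochondria take up long chains as carnitine esters through CPT1A, SLC25A20 and CPT2, shorten them in repeated rounds of dehydrogenation, hydration, dehydrogenation and thiolysis, and pass electrons through ETFA, ETFB and ETFDH to the respiratory chain. Peroxisomes handle very long and branched chains, which AMACR, HSD17B4, SCP2, ACOX3 and ACAA1 process, and CAT removes the hydrogen peroxide that is formed. Peroxins build the organelle: PEX5 and PEX7 carry enzymes in from the cytosol, PEX13 and PEX14 dock them, PEX2 and PEX10 ubiquitinate the receptor, PEX6 and PEX26 return it, and PEX3, PEX16 and PEX19 insert membrane proteins. Clear cell renal carcinoma is known for storing lipid and for low fatty acid oxidation. PHYHD1 is a relative of the peroxisomal phytanic acid hydroxylase PHYH.

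PHYHD1 mRNA set EV apart from MT and WT. It stood at 109.5 FPKM (a unit per transcript length and sequencing depth, read from the values since the header names none) in MT, 118 FPKM in WT and 0.092 FPKM in EV. Its footprints were 905 TPM (a unit with a fixed total per library) in MT and 222 TPM in WT, and were listed at 0 in EV. The libraries labelled WT thus held abundant PHYHD1, although the design text calls these cells untreated. Values per gene do not show the missing segment, so the labels MT and WT were not checked against each other. The PHYHD1 footprint gap between MT and WT came with similar mRNA, and its cause was not tested. All 10 renal carcinoma line markers examined reached 1 FPKM, with PAX8 between 75.9 and 94.0 FPKM. Of the other markers, the 3 endothelial genes were at 0 in both assays, the hepatocyte genes ALB and APOA1 were at 0 FPKM and had 0.256 and 0.383 TPM in MT footprints, immune PTPRC reached at most 0.071 FPKM and fibroblast DCN was at 0. The macrophage gene CD68, which many cell lines express, had 5.47 to 9.02 FPKM, and the 3 fibroblast genes summed to 0.763 to 2.61 FPKM. Library sums and low values give no read totals, so the depth is unknown. A gene present in a single library of its assay had a median of 0.038 to 0.046 FPKM or 0.118 to 0.148 TPM, which shows how small a value these libraries can register.

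At the median the oxidation enzymes were more abundant than the peroxins. Their median mRNA level was 36.0 FPKM in MT, 30.2 FPKM in WT and 37.6 FPKM in EV, above the peroxin medians of 9.34, 8.34 and 9.49 FPKM in the same libraries. In footprints the enzyme medians were 42.6 TPM in MT, 48.2 TPM in WT and 43.5 TPM in EV, and the peroxin medians were 9.79, 9.03 and 9.05 TPM. For orientation, genes at 1 unit or more had medians of 13.2 to 13.3 FPKM and 13.5 to 13.9 TPM. The 9 peroxisomal enzymes lay nearer to these, with mRNA medians of 15.9, 15.1 and 17.3 FPKM in MT, WT and EV. The 17 mitochondrial enzymes had 39.0, 37.9 and 43.9 FPKM. Summed over the 26 enzymes, footprints came to 1666 TPM in MT, 1820.4 TPM in WT and 1683 TPM in EV, while the mRNA sum was lowest in WT, at 949.6 FPKM in MT, 880.0 FPKM in WT and 957 FPKM in EV. The 11 peroxins together held 156 TPM in MT, 153 TPM in WT and 156 TPM in EV. These are bulk libraries, in which fewer cells with an mRNA and less of it per cell cannot be told apart.

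**Figure D1:**
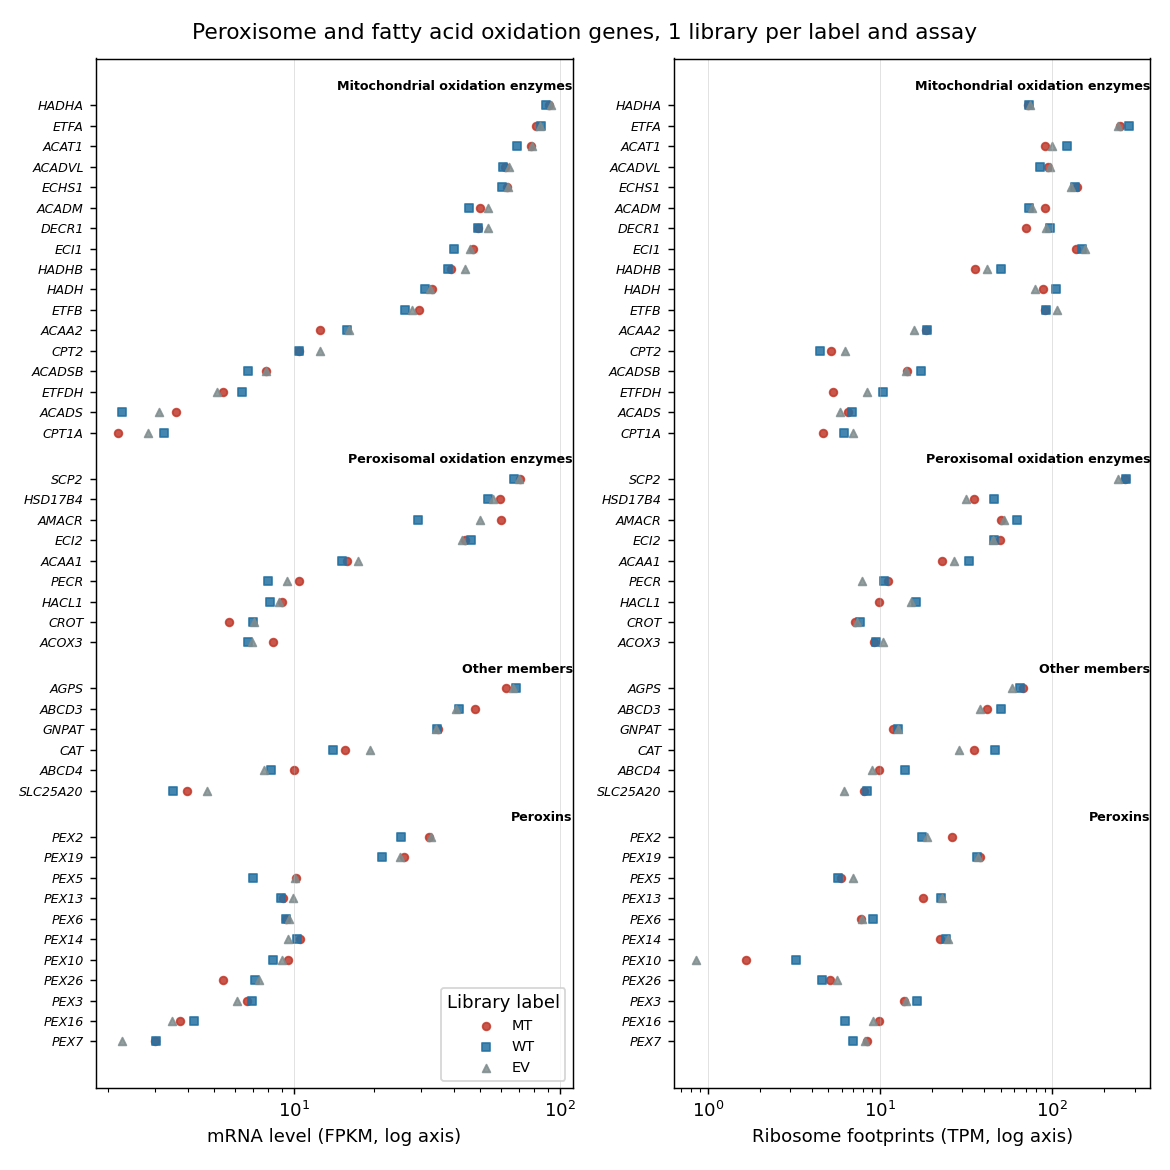
Level of each of the 43 members in the libraries labelled MT, WT and EV, as mRNA in FPKM (left) and as ribosome footprints in TPM (right), both on log axes, with 1 point per library. The labels lie close together for most genes, and AMACR mRNA (29.2 FPKM in WT) and PEX10 footprints (0.851 TPM in EV) stand away from their own other points.

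Within the mitochondrial pathway the levels ran over a wide range. HADHA, the alpha subunit of the trifunctional protein that carries out the last steps on long chains, had the highest mRNA of the members, at 90.8 FPKM in MT, 88.6 FPKM in WT and 92.6 FPKM in EV. Its partner HADHB stood at 39.0, 37.9 and 43.9 FPKM in MT, WT and EV. Both subunits form a single complex, yet in footprints HADHB differed between libraries more than HADHA did, at 35.4 TPM in MT, 50.5 TPM in WT and 41.6 TPM in EV, against 71.8, 73.1 and 73.6 TPM for HADHA. ETFA and ETFB, which join into the electron transfer flavoprotein, likewise differed in level, with ETFA mRNA at 81.0 FPKM in MT, 84.7 FPKM in WT and 83.9 FPKM in EV and ETFB mRNA at 29.6, 26.2 and 27.8 FPKM. ETFA had the highest footprints of all members in WT and EV, with 246 TPM in MT, 278 TPM in WT and 240.2 TPM in EV, and ETFB had 91.0, 91.8 and 106 TPM. The thiolase ACAT1 (77.8, 69.2 and 78.3 FPKM in MT, WT and EV), the very long chain dehydrogenase ACADVL (62.4, 61.1 and 64.4 FPKM) and the hydratase ECHS1 (63.1, 60.4 and 64.1 FPKM) were also among the abundant mRNAs. ECHS1 and ECI1, an isomerase for unsaturated chains, had 139 and 137 TPM in MT, 135 and 149 TPM in WT and 129 and 154 TPM in EV.

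ACADM, the medium chain dehydrogenase, had 50.1, 45.4 and 53.9 FPKM and its highest footprints in MT, with 90.7, 73.5 and 76.5 TPM. ACADVL footprints were 94.5, 85.2 and 97.4 TPM and lowest in WT. DECR1, the reductase for unsaturated chains, had 49.4, 49.0 and 53.9 FPKM, and its footprints were lowest in MT, at 70.4, 96.9 and 92.2 TPM. ACAT1 footprints were 90.1, 121 and 99.1 TPM, and those of ACADSB, a dehydrogenase for short branched chains, 14.3, 17.2 and 14.2 TPM, both highest in WT. ACADSB mRNA was 7.83, 6.71 and 7.81 FPKM in MT, WT and EV.

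Several genes of the mitochondrial pathway were low in at least 1 assay. CPT1A, the carnitine acyltransferase that controls entry of long chains, had 2.18 FPKM in MT, 3.25 FPKM in WT and 2.83 FPKM in EV, which is between percentiles 8.32 and 14.3 of genes at 1 FPKM or more. Its footprints were 4.69 TPM in MT, 6.19 TPM in WT and 6.95 TPM in EV, so MT held the lowest value in both assays. SLC25A20, which moves acylcarnitines across the inner membrane, had 3.97, 3.51 and 4.69 FPKM and 8.07, 8.36 and 6.16 TPM in MT, WT and EV. CPT2, which releases the acyl group in the matrix, had 10.5, 10.4 and 12.5 FPKM and 5.16, 4.50 and 6.27 TPM, low in footprints but at percentiles 42.5 to 48.3 of genes at 1 FPKM or more in mRNA. ETFDH, the oxidoreductase that hands electrons to ubiquinone, had 5.41, 6.37 and 5.14 FPKM, and ACADS, the short chain dehydrogenase, 3.58, 2.25 and 3.11 FPKM. CPT1A, SLC25A20, ETFDH and ACADS thus lay at or under percentile 28.5 in mRNA.

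Among the peroxisomal oxidation enzymes SCP2, which encodes a thiolase for branched chains and a lipid carrier, led in both assays, with 71.1, 67.2 and 70.2 FPKM and 263, 266 and 240.0 TPM in MT, WT and EV. ACAA1, the peroxisomal thiolase for straight chains, had 15.9, 15.1 and 17.3 FPKM, with footprints of 22.8, 33.0 and 26.7 TPM that were highest in WT. ECI2, an isomerase found in both organelles, varied little, at 44.1, 46.5 and 42.7 FPKM and 49.8, 45.7 and 45.4 TPM. ACOX3, an oxidase for branched chains, had 8.36, 6.74 and 6.93 FPKM and 9.24, 9.50 and 10.4 TPM. PECR, which reduces enoyl-CoA, had 10.4, 8.01 and 9.42 FPKM and 11.1, 10.6 and 7.83 TPM, lowest in mRNA in WT and in footprints in EV. ABCD3, which carries branched chain acyl-CoA into the organelle, had 47.8, 41.8 and 40.6 FPKM and 41.9, 50.0 and 37.9 TPM. CROT, which attaches carnitine to shortened chains, lay between 5.69 and 7.07 FPKM and between 7.13 and 7.67 TPM.

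AGPS and GNPAT, which act together in the first steps of ether lipid synthesis, differed in their footprints. AGPS had 62.5 FPKM and 67.8 TPM in MT, 68.2 FPKM and 64.5 TPM in WT, and 66.7 FPKM and 58.0 TPM in EV. GNPAT had 34.9 FPKM and 11.9 TPM in MT, 34.6 FPKM and 12.8 TPM in WT, and 34.2 FPKM and 12.7 TPM in EV. GNPAT therefore varied little between labels, but its footprints were low for its mRNA in all 3. The docking peroxins PEX13 and PEX14 were similar in mRNA, with 9.12 and 10.5 FPKM in MT, 8.90 and 10.3 FPKM in WT, and 9.95 and 9.49 FPKM in EV. Their footprints were 17.6 and 22.4 TPM in MT, 22.5 and 24.2 TPM in WT, and 22.7 and 24.7 TPM in EV, so MT was the low library for both. The peroxin footprints were led by the membrane protein receptor PEX19 (37.9, 36.4 and 37.2 TPM in MT, WT and EV), and PEX7, the import receptor for a small group of enzymes that includes ACAA1 and AGPS, had the lowest peroxin mRNA in MT, WT and EV, at 2.99, 3.01 and 2.26 FPKM. The membrane insertion factor PEX16 had 3.74, 4.22 and 3.46 FPKM and 9.79, 6.26 and 9.05 TPM, with WT highest in mRNA and lowest in footprints. PEX3, PEX6 and PEX26 lay between 5.40 and 9.57 FPKM and between 4.62 and 16.4 TPM.

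In mRNA 1 of the 43 members differed 2-fold or more between any pair of libraries, counting values after adding 1, and this was AMACR. AMACR (ENSG00000242110), the racemase that prepares branched-chain fatty acids and bile acid intermediates for peroxisomal oxidation, stood at 60.2 FPKM in MT, 29.2 FPKM in WT and 50.2 FPKM in EV. WT was the low library and MT the high one. The log2 difference was 1.02 in MT over WT, -0.76 in WT over EV and 0.26 in MT over EV, and with pseudocount 5 the first was 0.93. Of all genes, 0.191% were as far or farther above in MT over WT and 0.635% as far below in WT over EV. In MT over EV 7.82% were as far or farther above. The neighbouring gene C1QTNF3, looked up after these values were seen, had 1.99 FPKM in MT, 1.20 FPKM in WT and 2.29 FPKM in EV. The readthrough C1QTNF3-AMACR, whose annotation overlaps AMACR, was listed at 0 in all RNA-seq libraries.

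Seen against the whole table, the count of members past the size rule was small in every mRNA comparison. In MT over WT it was 1 of 43, beside 0.508% of 11013 genes, in WT over EV 0 of 43 beside 0.499% of 11032, and in MT over EV 0 of 43 beside 0.29% of 11016. At 1.5-fold AMACR was the single member counted, higher in MT over WT (1.62% of all genes) and lower in WT over EV (1.55%), with no member in the opposite directions (1.62% and 1.08%). In MT over EV no member was 1.5-fold higher (0.826% of all genes) or lower (1.49%). The next members above 0 in MT over WT were ACADS (0.50) and the import receptor PEX5 (0.48). PEX5 had 10.2 FPKM in MT, 7.01 FPKM in WT and 10.1 FPKM in EV, again with WT the low library, and its footprints were 5.92, 5.67 and 6.94 TPM. PECR (0.34) came next among members at 10 FPKM or more. In MT over EV the thiolase ACAA2 was the lowest member at 10 FPKM or more (12.5 FPKM in MT and 16.1 FPKM in EV, with 15.9 FPKM in WT). ACAA2 footprints were 18.4 TPM in MT, 18.7 TPM in WT and 15.7 TPM in EV.

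Small differences in WT mRNA ran mostly one way across the members. In WT over EV 31 of 43 members were below 0, with a median log2 difference of -0.07 beside -0.01 over all genes, and 22 of 26 oxidation enzymes were below 0. In MT over WT 31 of 43 were above 0, with a median of 0.07 beside -0.00. In MT over EV 23 were above 0 and 20 below, with a median of 0.01 beside -0.01. Above 0 in WT over EV were 27.9% of the members and 15.4% of the enzymes, beside 48.9% of all genes. In MT over WT the member share was 72.1% beside 49%, and in MT over EV 53.5% beside 48.7%. These comparisons share libraries and are given side by side for that reason. For single genes, the robust SD of the log2 difference was 0.14 to 0.16 over genes at 10 units or more in both libraries and 0.14 to 0.17 over the members.

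Sequence upstream of AMACR and of CAT is shown because these are the members at 10 units or more whose mRNA and footprints went apart by 2-fold in WT over EV. Each window holds the 250 bases before the RefSeq start on GRCh38.p14, a build other than that of the expression table. The capitals mark the CCAAT box and the GC box GGGCGG, searched on both strands. The AMACR window is chr5:34008051-34008300, minus strand, and the CAT window chr11:34438684-34438933, plus strand.
AMACR: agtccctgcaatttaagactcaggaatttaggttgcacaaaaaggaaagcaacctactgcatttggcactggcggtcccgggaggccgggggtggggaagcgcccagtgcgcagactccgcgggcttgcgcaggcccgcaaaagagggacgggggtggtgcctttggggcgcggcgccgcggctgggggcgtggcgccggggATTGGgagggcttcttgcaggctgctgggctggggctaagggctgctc
CAT: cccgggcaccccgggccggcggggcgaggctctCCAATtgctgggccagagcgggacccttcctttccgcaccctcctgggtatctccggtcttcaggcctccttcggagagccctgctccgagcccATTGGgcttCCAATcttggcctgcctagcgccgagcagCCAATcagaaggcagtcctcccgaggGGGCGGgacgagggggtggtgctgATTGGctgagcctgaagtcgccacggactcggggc
The AMACR window holds 1 CCAAT box, on the opposite strand, and no GC box, and the CAT window 5 and 1. Promoters were found for 38 of the 43 members, where 81.6% held a GC box and 34.2% a CCAAT box, beside 76.5% and 42.3% of 9181 genes at 1 FPKM or more. The half-site AGGTCA, which nuclear receptors such as PPARA bind in pairs, was in 2.63% of member windows and in 11.8% of the expressed genes' windows. A repeat of it with 1 base between the copies was in no member window and in 0.0196% of all windows. The E-box CACGTG was in 7.89% of member windows and 11.5% of the expressed genes' windows, and TATAAA in 2.63% and 7.43%. These are matches of letters in a short window, counted with overlaps between motifs allowed.

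Footprints of single members were spread more widely between libraries than their mRNA was, as those of all genes were. The only member past 2-fold was PEX10, a ubiquitin ligase subunit of the receptor recycling machinery, with 1.66 TPM in MT, 3.26 TPM in WT and 0.851 TPM in EV. WT was highest and EV lowest, and all 3 are low values. The log2 difference was 1.20 in WT over EV, 0.52 in MT over EV and -0.68 in MT over WT, and with pseudocount 5 the first was 0.50. Its mRNA was level, at 9.52, 8.34 and 9.003 FPKM in MT, WT and EV, and it overlaps RER1 (97.5, 88.0 and 95.5 FPKM) on the reference assembly. Counting 2-fold in either direction, 1 of 43 members passed in WT over EV (3.36% of 10700 genes), 0 in MT over WT (3.19% of 10752) and 0 in MT over EV (2.83% of 10737).

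CAT, the catalase that breaks down hydrogen peroxide, followed PEX10. It had 35.1 TPM in MT, 46.5 TPM in WT and 28.8 TPM in EV, a log2 difference of 0.67 in WT over EV and 0.28 in MT over EV. CAT mRNA was lower in both than in EV, at 15.5 FPKM in MT, 14.0 FPKM in WT and 19.3 FPKM in EV. ABCD4, a vitamin B12 transporter of the lysosome that belongs to the peroxisomal transporter family, had 9.79, 13.9 and 8.99 TPM in MT, WT and EV. HSD17B4, the bifunctional enzyme of the second and the third peroxisomal step, had 34.9, 45.8 and 31.6 TPM. Their mRNA was 9.98, 8.18 and 7.69 FPKM for ABCD4 and 59.6, 53.8 and 55.9 FPKM for HSD17B4. In all 3 genes WT held the highest footprint value and EV the lowest.

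Lower footprints in MT than in WT were seen for ETFDH, PEX10 and HACL1. ETFDH had 5.34 TPM in MT, 10.3 TPM in WT and 8.36 TPM in EV. HACL1, the lyase that splits off formyl-CoA in alpha-oxidation of phytanic acid, had 9.83 TPM in MT, 16.2 TPM in WT and 15.2 TPM in EV. HACL1 mRNA was 8.99, 8.11 and 8.81 FPKM. For both genes MT was the low library in footprints, with log2 differences of -0.84 and -0.67 over WT and -0.56 and -0.58 over EV. Past 1.5-fold lower in MT over WT were 3 of 43 members (5.81% of all genes), and higher were 0 (6.72%). In WT over EV 2 members, PEX10 and CAT, were 1.5-fold higher (6.56% of all genes) and 0 lower (5.58%), and in MT over EV 0 were higher (6.35%) and 0 lower (4.47%). These shares are near or under those of all genes. PEX2, which works with PEX10, went the other way, at 26.03 TPM in MT, 17.4 TPM in WT and 18.7 TPM in EV. PEX2 mRNA was 32.1, 25.2 and 32.8 FPKM in MT, WT and EV.

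**Figure D2:**
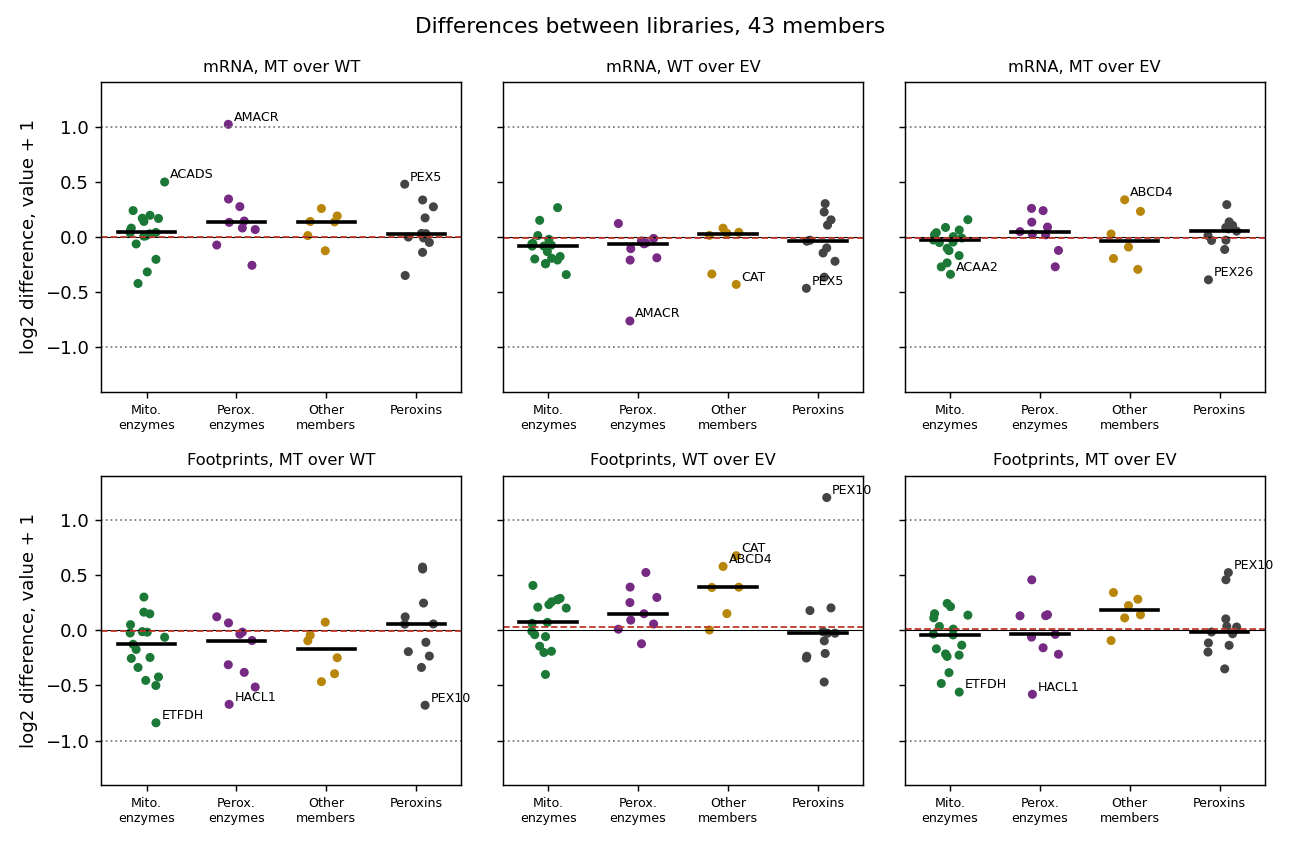
Log2 differences of the 43 members after adding 1, in mRNA (top) and footprints (bottom), for MT over WT, WT over EV and MT over EV, with 1 point per gene. Thick bars are group medians, the dashed line is the median of all genes and the dotted lines mark 2-fold, which AMACR mRNA passes in MT over WT (1.02) and PEX10 footprints in WT over EV (1.20).

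The footprint medians had the opposite sign to those of mRNA in all 3 comparisons, with both medians near 0 in MT over EV. In WT over EV the member median was 0.09 beside 0.03 over all genes. Above 0 were 27 of 43 members (62.8%, beside 53.4% of all genes). Among the oxidation enzymes these were 8 of the 9 peroxisomal and 10 of the 17 mitochondrial ones (58.8%). In MT over WT the member median was -0.10 beside -0.01, with 30 of 43 below 0. In MT over EV it was -0.02 beside 0.01, with 21 above and 22 below 0. Above 0 were 30.2% of the members in MT over WT and 48.8% in MT over EV, beside 48.4% and 52.1% of all genes. For single genes at 10 units or more in both libraries the robust SD was 0.20 to 0.25 here, and over the members 0.23 to 0.27.

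Oxidation enzymes and peroxins differed little from each other in mRNA. The median log2 difference of the enzymes minus that of the peroxins was 0.04 in MT over WT, -0.04 in WT over EV and -0.06 in MT over EV. The first 2 change sign among genes at 10 units or more, to -0.24 and 0.21, where few peroxins are measured. In footprints the member enzymes and the member peroxins lay on opposite sides of 0 with the WT library. The enzyme median was 0.12 and the peroxin median -0.03 in WT over EV, a gap of 0.15, and -0.11 and 0.05 in MT over WT, a gap of -0.16. At 10 units or more the MT over WT gap was -0.0648 and the WT over EV gap 0.21. In MT over EV the gap was -0.02. In WT over EV 18 of 26 enzymes (69.2%) and 3 of 11 peroxins (27.3%) had higher footprints, beside 53.4% of all genes. Outside the members this contrast did not recur in WT over EV. The 4 other measured peroxins had a median of 0.21 there, with 3 above 0. Other peroxisomal and other mitochondrial genes of the pathway had 0.03 and 0.08. In MT over WT these medians were 0.05, -0.07 and -0.04. Genes are not replicates, so these gaps are descriptions of the libraries.

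The same values can be read by which label held the extreme. WT had the lowest mRNA of the 3 libraries in 20 of 26 oxidation enzymes (76.9%) and in 5 of 11 peroxins (45.5%), beside 35.7% of all genes. WT had the highest footprints in 15 of 26 enzymes (57.7%) and 3 of 11 peroxins (27.3%), beside 38.3% of all genes. Both held at once in 14 members (32.6%), beside 14.5% of all genes. Of these 14, the peroxisomal enzymes were ACAA1, AMACR, HACL1, HSD17B4, SCP2 and CAT, the mitochondrial ones ACADS, ACADSB, ACAT1, DECR1, HADH and HADHB, and the rest SLC25A20 and PEX10. These ranks take no account of the size of a gap. Taken singly, WT had the lowest mRNA in 62.8% of the members and the highest footprints in 53.5%. Shares of this size overlap in about as many genes even when both ranks are unrelated. HADH, the dehydrogenase for short and medium chains, had ample signal, at 33.0, 31.2 and 32.5 FPKM and 88.1, 105 and 79.4 TPM in MT, WT and EV. Its mRNA gaps were small, with log2 differences of -0.06 in WT over EV and 0.08 in MT over WT. Of all genes, 38.7% were as far or farther below in WT over EV, and 32.3% as far or farther above in MT over WT. What the WT libraries have in common beyond their label was not tested.

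Put as footprint differences relative to mRNA differences, called translational efficiency here, 3 members passed 2-fold in WT over EV. These were PEX10 (1.30), CAT (1.10) and AMACR (1.01), all higher in WT, and they make 6.98% of the members beside 4.21% of 10335 genes. With pseudocount 5 all 3 were under 2-fold, at 0.57, 0.96 and 0.92, and with centring on the median of genes at 10 units or more AMACR was too, at 0.99. AMACR footprints were 50.2 TPM in MT, 62.6 TPM in WT and 52.5 TPM in EV, so they were highest in the library where its mRNA was lowest. In MT over WT AMACR was the only member past 2-fold (-1.33), which is 1 of 43 beside 4.82% of 10352 genes, and in MT over EV there was none beside 3.51% of 10331. At 1.5-fold, WT over EV had 5 members higher, adding SLC25A20 (0.72) and the enoyl-CoA reductase PECR (0.60), and 1 lower, PEX16 (-0.69), beside 9.47% and 7.4% of all genes. MT over WT had 1 higher, PEX16 (0.71), beside 8.95%, and 6 lower beside 8.77%, which were AMACR, PEX10, HACL1, ABCD4, ETFDH and ACAT1. MT over EV had 0 higher beside 8.14% and 2 lower, ETFDH and HACL1, beside 5.54%. The widest excess over all genes was in MT over WT, where 14% of the members were 1.5-fold lower beside 8.77%.

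The member median of translational efficiency was 0.20 in WT over EV beside 0.04 over all genes, with 32 of 43 above 0 (74.4%, beside 53.7%). It was -0.19 in MT over WT beside -0.01, with 31 of 43 below 0, and -0.01 in MT over EV beside 0.02. Above 0 were 27.9% of the members in MT over WT and 46.5% in MT over EV, beside 49.2% and 52% of all genes. Lower mRNA with higher footprints was found in 19 of 43 members in WT over EV (44.2%, beside 27.6% of all genes), and in 15 of the 26 enzymes. In MT over WT higher mRNA with lower footprints was found in 23 of 43 (53.5%, beside 26.6%). In the comparison without WT libraries, MT over EV, these patterns were found in 8 and 10 of 43 (18.6% and 23.3%, beside 27% and 24%). Gene by gene, the mRNA and footprint differences of the members were only weakly related. Pearson r was -0.14 in WT over EV, -0.02 in MT over WT and 0.11 in MT over EV. The shares with opposite signs thus mostly restate the separate shifts of mRNA and footprints. For single genes at 10 units or more in all 4 libraries the robust SD of translational efficiency was 0.24 to 0.31, and over the members, whatever their level, it was 0.46 in MT over WT, 0.40 in WT over EV and 0.30 in MT over EV.

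**Figure D3:**
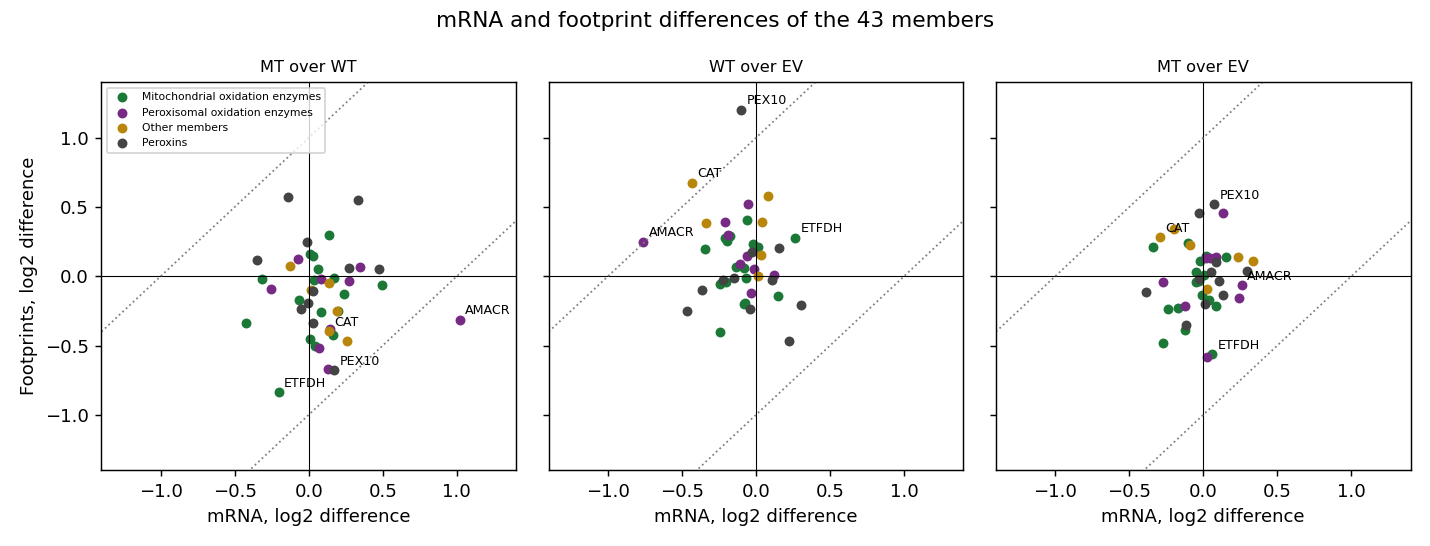
Footprint difference (vertical) against mRNA difference (horizontal) of the 43 members, both on the log2 scale after adding 1, for MT over WT, WT over EV and MT over EV, with 1 point per gene. Dotted lines mark a 2-fold gap between both differences, which PEX10, CAT and AMACR pass in WT over EV and AMACR in MT over WT.

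Within a label, footprints per mRNA were higher at the median for mitochondrial than for peroxisomal enzymes. TPM and FPKM have different scales, so the ratio is read by its place among all genes at 1 unit or more in both assays. The log2 ratio had a median of 0.71 in MT, 0.80 in WT and 0.73 in EV over the 17 mitochondrial enzymes, and of 0.13, 0.44 and 0.09 over the 9 peroxisomal ones, beside 0.13, 0.15 and 0.12 over all genes. Mitochondrial enzymes lay above the median of all genes in 13 of 17 cases in MT, 15 in WT and 13 in EV. The 11 peroxins spread widely, with medians of 0.53 in MT and 0.48 in WT, and 0.82 over the 10 that reached 1 unit in EV.

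For single genes the ratio is given as TPM over FPKM, without log2 or an added 1, and the percentiles are those of the log2 ratio. Ratios were high in every label for SCP2 (3.70, 3.97 and 3.42 in MT, WT and EV), ETFB (3.08, 3.51 and 3.80), ETFA (3.04, 3.28 and 2.86) and ECI1 (2.89, 3.74 and 3.34), at percentiles between 85.7 and 92.1 of all genes. The lowest, beside PEX10, were GNPAT (0.34, 0.369 and 0.372) and CPT2 (0.493, 0.432 and 0.501), at percentiles between 9.29 and 20. SCP2, ETFB, ETFA, ECI1, GNPAT and CPT2 kept their side of the gene median in all 3 labels. AMACR did not, with ratios of 0.834 in MT, 2.15 in WT and 1.05 in EV, which are percentiles 36.9, 77.6 and 48.1. HADHA stayed at 0.791, 0.826 and 0.795, while HADHB had 0.908, 1.33 and 0.946.

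**Figure D4:**
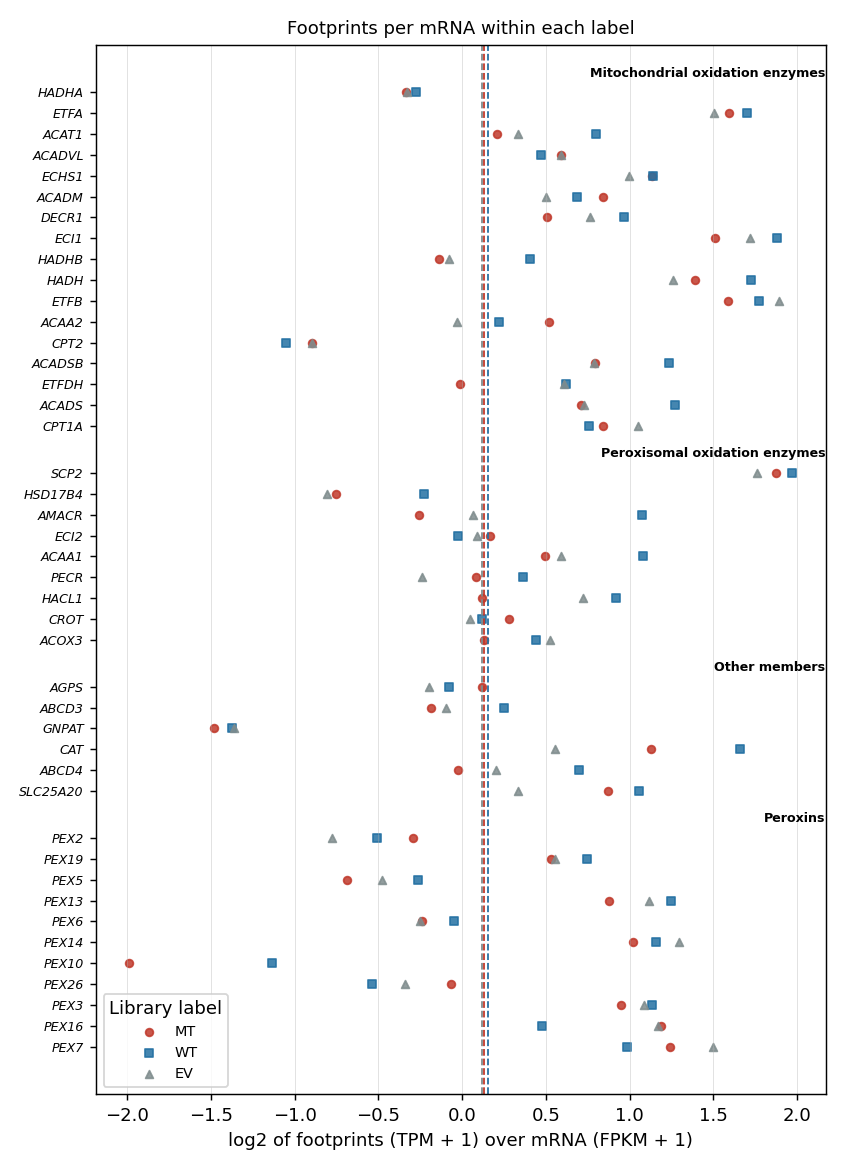
Log2 of footprints (TPM + 1) over mRNA (FPKM + 1) for each member in the libraries labelled MT, WT and EV, with 1 point per library pair and dashed lines at the median of all genes in each label. SCP2 and ETFB lie at the high end, GNPAT and CPT2 at the low end, and AMACR is set apart in WT. PEX10 has no EV point, as its footprints were under 1 TPM there.

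Other genes of the pathway, a list of 81 in the table, were examined for the same features. In WT over EV mRNA, 40 of 52 measured genes were below 0 with a median of -0.16, and no gene passed 2-fold. Above 0 were 23.1% of the measured pathway genes, beside 48.9% of all genes. WT had the lowest mRNA in 31 of 52 (59.6%) and the highest footprints in 20 of 55 (36.4%, beside 38.3% of all genes), so the first share was near that of the members and the second near that of all genes. Lower mRNA with higher footprints in WT over EV was found in 21 of 51 (41.2%), close to the 44.2% of the members. Translational efficiency in WT over EV was above 0 in 38 of 51 (74.5%, beside 74.4% of the members and 53.7% of all genes), with a median of 0.17. Lowest mRNA with highest footprints was found in 10 of 52 (19.2%), PHYH among them, at 30.6 FPKM and 31.3 TPM in MT, 25.2 FPKM and 41.7 TPM in WT, and 28.0 FPKM and 29.5 TPM in EV. Past 2-fold in footprints were 5.56% of these genes in MT over WT, 3.77% in WT over EV and 9.26% in MT over EV. The shares of all genes were 3.19%, 3.36% and 2.83%. DHRS4, a carbonyl reductase (1.87 TPM in MT, 6.41 in WT and 7.51 in EV), and ACAD10 (1.08, 3.58 and 3.78 TPM) passed in MT over WT and MT over EV. PPARA, the nuclear receptor that drives oxidation genes in liver (0.667, 0.452 and 2.61 TPM), passed in WT over EV and MT over EV. PPARGC1A, a coactivator of oxidation genes (1.58, 1.07 and 0.175 TPM), passed in MT over EV, as did the carnitine transporter gene SLC22A5 (8.78, 5.79 and 3.60 TPM). FAR2, which passed in MT over WT and WT over EV, was listed at 0 in MT and EV and at 1.07 TPM in WT. In translational efficiency ACACB, which makes malonyl-CoA, was the highest in WT over EV (1.64), with 1.45, 0.683 and 1.73 FPKM and 1.22, 1.42 and 0.262 TPM in MT, WT and EV. These are low values, and SLC22A5 mRNA was 6.73, 4.42 and 6.43 FPKM in MT, WT and EV.

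Of the 43 members, 12 overlap another protein-coding gene or a readthrough on the reference assembly, AMACR, PEX10, HACL1 and ETFDH among them. No source used here says whether reads were counted by strand, so reads of overlapping partners cannot be told apart for these genes.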

How the data were processed

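RNA-seq and Ribo-seq values of 786-O libraries labelled MT, WT and EV were taken from a single deposited table, with 1 column per library, matched to samples by name. Per the labels' protocols, cycloheximide was added to the medium before Ribo-seq extracts were made, RNase I made the footprints and antisense probes removed ribosomal RNA. Cycloheximide given to living cells can shift footprints. The submitters' processing notes name human genome build hg18. For the aligner, the counting and the annotation nothing is given in these sources. The deposited RNA-seq columns carry no unit and were read as FPKM, since they sum to unequal totals; TPM over a larger gene set would look alike. The deposited Ribo-seq columns are TPM, since each sums to a fixed total. No count test or interval was possible.

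Rows without a gene name (605 of 20307, 0.153% to 0.564% of a library) and 7 symbols with several values were left out. Differences are log2 of value + 1, which makes changes of low genes look smaller. Genes entered at 1 unit in 1 library compared, in both assays for translational efficiency, the footprint minus the mRNA difference. Higher or lower counts used 2-fold or 1.5-fold and are no test. The code was run on a copy of the EV values in which chosen genes were changed 4-fold without noise. This checks the arithmetic and gives no error rate for 1 library per group. Members, lists and rules were chosen with earlier results of these data known. All members could be named; every library value was given for those past 2-fold, the extremes of a comparison, the most abundant and chosen pairs, with others added for the roles they play. The other pathway genes named were up to 4 past 2-fold in a comparison, with PHYH, RER1 and C1QTNF3 added after their values were seen. Python 3.11.15 with pandas 2.3.3 was used. Alternatives were other pseudocounts, minimum levels, centring, size rules and groupings.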

Additional observations from a re-analysis of the deposited data

How the results depend on the processing

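Over 187 alternatives, values were judged to have moved when a count differed by more than 1.5 times, or a log2 value by 0.1 or in sign. Pseudocount 5 took the count of members past 2-fold to 0 in MT over WT mRNA, in WT over EV footprints and in WT over EV translational efficiency, and pseudocount 0.1 raised it to 2 in MT over WT translational efficiency. At a minimum of 10 units it was 0 in WT over EV footprints, as PEX10 was no longer measured. With 1.5-fold the counts were 1 in WT over EV mRNA, 3 and 2 in MT over WT and WT over EV footprints, and 7, 6 and 2 in MT over WT, WT over EV and MT over EV translational efficiency.

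At a minimum of 10 units the enzyme minus peroxin gap became -0.24 in MT over WT mRNA and 0.21 in WT over EV mRNA, both of the opposite sign to the value given above, since few peroxins reach that level, and -0.0648 in MT over WT footprints. With all 32 members that are no peroxin it was 0.0039 in MT over EV footprints. The member median of MT over EV mRNA was -0.0098 at that minimum, and that of translational efficiency 0.0034, or 0.0024 with pseudocount 5. The median log2 footprint-to-mRNA ratio of the members minus that of all genes was 0.37 in MT, 0.54 in WT and 0.42 in EV. At 10 units this log2 difference was 0.14, 0.40 and 0.20. Centring on the median of genes at 10 units or more moved no result in this way, but took AMACR translational efficiency in WT over EV to 0.99 and the count past 2-fold there to 2.

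PEX10 depends on the pseudocount, with footprint differences in WT over EV of 1.82 at 0.1 and 0.50 at 5. CAT had a translational efficiency of 0.96 in WT over EV at pseudocount 5. No replicates exist, so leaving out a library was not possible. No paired analysis was possible because each group has 1 library.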
